A study of Rattus norvegicus with 6 samples.

Results

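The genes described here set the switch between cycling and quiescence in G1: the CDK inhibitors *Cdkn1a*, *Cdkn1b*, *Cdkn1c* and *Cdkn2c*, the D cyclins *Ccnd1*, *Ccnd2* and *Ccnd3*, their kinases *Cdk4* and *Cdk6*, and *Rbl2*, which encodes p130. They were taken by symbol, and all 10 were found among the 17315 rows of the expression tables. The samples are RNA-seq libraries of HCN cells, a line of neural stem cells (NSCs) cloned from the hippocampus of adult rats. The cells were reverse-transfected with a Stealth control duplex (siControl, 3 samples) or a Stealth duplex against *Derl1* (siDerl1, 3 samples) that was used in both rat and mouse NSCs, and all 6 samples had 2 days of BMP4, which induces quiescence. *Derl1* encodes Derlin-1, a membrane protein of the endoplasmic reticulum that takes part in the removal of misfolded proteins. The comparison asks how the RNA of these genes differs when *Derl1* is knocked down under the quiescence signal. A single duplex was used for the knockdown in a single line, so effects of that duplex and of the lost protein cannot be told apart. No label says that the 3 samples of a group came from separate cultures, and the p-values measure only the spread between them.

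In G1, mitogens raise the D cyclins, which bind CDK4 and CDK6. These kinases phosphorylate the retinoblastoma proteins, and the phosphorylated proteins release E2F, the factor that switches on the genes of S phase. The Cip/Kip inhibitors p21 (*Cdkn1a*), p27 (*Cdkn1b*) and p57 (*Cdkn1c*) bind cyclin-CDK complexes, whereas p18 (*Cdkn2c*), of the INK4 family, binds CDK4 and CDK6 alone and keeps them from their cyclins. In quiescent cells p130 joins E2F4 and the MuvB core in the DREAM complex, which represses cell cycle genes. Adult hippocampal NSCs are known to depend on p57, p27 and p21 to stay out of the cycle, and p27 and p130 act largely through protein abundance and phosphorylation, which RNA does not show.

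The promoters of *Cdkn1a* and *Cdk4* are shown first, because of their place in the comparison below. *Cdkn1a* was the only one of the 9 tested genes that was higher with siDerl1 in all 3 pairs of samples, beside 15.8% of all genes tested. *Cdk4* was the only one of the 9 whose groups lay apart, being lower, beside 8.52% of all genes that were lower in this way. RefSeq promoter windows of the build GRCr8, from 250 bases before to 50 bases after the annotated start, were matched for 6 of the 10 genes. Capitals mark the motifs found in these 2 windows.

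*Cdkn1a* (chr20:7150682-7150981, plus strand): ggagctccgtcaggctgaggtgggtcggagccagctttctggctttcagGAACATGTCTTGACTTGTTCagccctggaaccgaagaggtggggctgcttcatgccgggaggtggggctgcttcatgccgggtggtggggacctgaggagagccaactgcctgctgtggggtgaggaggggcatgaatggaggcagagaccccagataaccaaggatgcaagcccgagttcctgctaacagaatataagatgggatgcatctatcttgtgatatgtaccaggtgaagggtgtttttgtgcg

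*Cdk4* (chr7:64771203-64771502, plus strand): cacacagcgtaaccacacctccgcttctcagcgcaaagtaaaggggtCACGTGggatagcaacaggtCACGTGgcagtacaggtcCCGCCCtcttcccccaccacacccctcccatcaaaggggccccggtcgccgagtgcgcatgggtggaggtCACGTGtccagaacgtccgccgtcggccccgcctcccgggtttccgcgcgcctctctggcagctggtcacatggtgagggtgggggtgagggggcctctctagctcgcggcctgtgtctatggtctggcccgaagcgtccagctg

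The capitals in the *Cdkn1a* window match the consensus of the p53 response element over 20 bases with 1 mismatch, at position −201 from the annotated start. A p53 match with at most 1 mismatch was found in 24 of 33465 promoter windows of the same length, or 0.0717%. The *Cdk4* window held the E-box CACGTG, the binding motif of MYC, at 3 positions, and 19 of the 33465 windows, or 0.0568%, held it at least 3 times. It also held 1 GC box, GGGCGG or its complement, which 33.1% of all windows held. Both strands were searched, and the same search covered the CCAAT box, TATAAA, TTTCGCGC and TTTGGCGC for E2F, TTCNNNGAA for STAT factors, TTTGAA and TGACGTCA, none of which was found in these 2 windows. In the 4 other windows, the GC box was found in those of *Cdkn1b*, *Cdkn2c*, *Ccnd3* and *Rbl2*, the CCAAT box in *Cdkn1b* and *Ccnd3*, and TTTGAA in *Rbl2*. Of all windows, 37.5% held the CCAAT box and 18.3% held TTTGAA. A match describes these letters, and which start site the NSCs used was not measured.

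Values are transcripts per 1000000 (TPM), which are corrected for transcript length and can be compared between genes. They keep no read number, so depth and counting error are unknown. Between 11641 and 11808 genes per sample were above 0. *Derl1* itself was between 122 and 132 TPM in siControl and between 44.9 and 74.0 TPM in siDerl1 samples, with a log2 fold change of −1.03 and an adjusted p from limma of 0.497 without and 0.00884 with the replicate block described below. Of 12 NSC markers 11 had a mean of at least 1 TPM, *Vim* being the highest, whereas *Prom1* was at 0 throughout. Among them *Gfap* was higher by 0.62 on the log2 scale in siDerl1 samples and in all 3 pairs (adjusted p from limma of 0.704 without and 0.0219 with the block), and *Nes* was at −0.26, lower in all 3 pairs (0.704 and 0.0899). With the block and no intensity trend, 0 genes of the table passed. *Hes5* (0.94) and *Pax6* (0.24) were also higher in all 3 pairs and *Slc1a3* (−0.15) lower, with adjusted p from limma of 0.231, 0.564 and 0.342 with the block. The part of any of these in the results was not tested. Neuronal markers summed to between 106 and 134 TPM, with *Dcx* at −0.42 and *Tubb3* at 0.21 on the log2 scale between the siRNA groups (both without overlap, adjusted p from limma of 0.704 and 0.763), and oligodendrocyte lineage markers, led by *Sox10*, to between 1759 and 2287 TPM, with *Pdgfra* lower in all 3 pairs (−0.42, adjusted p = 0.773 from limma) and *Mbp* and *Cnp* higher in all 3 (0.17 and 0.06, adjusted p = 0.825 and 0.927). The part of these markers in the results was not tested either. The 8 microglia markers summed to between 3.73 and 4.43 TPM in siControl and between 3.80 and 5.72 TPM in siDerl1 samples, with *Cx3cr1* and *Trem2* at 0. The 7 endothelial and fibroblast markers summed to between 1.22 and 2.02 TPM in siControl and between 3.04 and 3.61 TPM in siDerl1 samples, with *Cldn5*, *Cdh5* and *Dcn* at 0 throughout, and their part in the results was not tested. In bulk RNA, fewer cells of a type and less RNA per cell cannot be told apart.

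*Cdk4* was by far the most abundant of the 10 genes, with a mean of 1207 TPM over the 6 samples and a range from 1099 to 1292 TPM. *Ccnd1* followed with a mean of 244 TPM (203 to 290) and *Cdkn1b* with 187 TPM (176 to 202), and the ranges of these 3 genes did not overlap. *Ccnd3* (mean 90.0 TPM, 85.4 to 95.6), *Cdkn2c* (74.0 TPM, 66.4 to 87.9) and *Ccnd2* (60.0 TPM, 17.4 to 82.9) came next, and each overlapped its neighbour. *Rbl2* (25.3 to 28.8 TPM) lay within the wide range of *Ccnd2*. The low end was made up of *Cdkn1a* (15.3 TPM, 8.35 to 22.3) and *Cdkn1c* (5.18 TPM, 1.66 to 8.90), whose ranges met, and of *Cdk6* (0.523 TPM, 0 to 1.3). Of the kinases of the D cyclins, these NSCs thus held almost only *Cdk4* RNA.

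**Figure D1:**
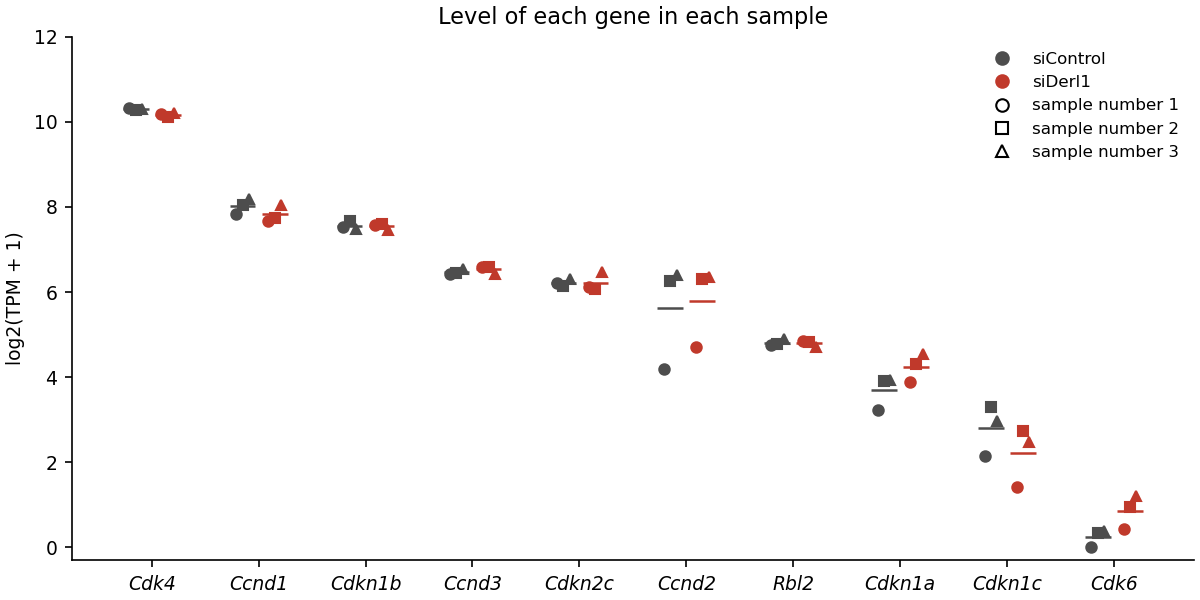
Level of the 10 genes in each sample, as log2(TPM + 1), ordered by mean TPM. Grey points are siControl and red points siDerl1 samples, the shape gives the sample number and the short lines are group means (n = 3). *Cdk4* lies highest and *Cdk6* lowest, and in *Ccnd2* both samples numbered 1 lie far below the other 4.

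The siRNA groups were compared with limma on log2(TPM + 1) values over the 10331 genes with a mean of at least 1 TPM. For genes with low TPM the added 1 makes differences look smaller than they are. Of the 10 members, 9 were tested and *Cdk6* was not. No gene of the whole table passed an adjusted p under 0.05 (0% of those tested), and none of the 9 members did, their adjusted p values from limma lying between 0.713 and 0.999. At an unadjusted p under 0.05 there was 1 of the 9, *Cdk4*, against 6.70% of all genes tested. By the limits of the study (fold change above 1.5 or below 0.8 with an unadjusted p under 0.05) 0.532% of all genes were higher and 1.37% lower in siDerl1 samples, and none of the 9 members was in either group in this fit. *Cdkn1a* lay closest to the upper limit, at 1.46-fold on the fitted scale and 1.49-fold by mean TPM. With a pseudocount of 0.1 it was at 0.58 on the log2 scale, with an unadjusted p of 0.0588 from limma. The study's own test ran on values not used here, and its calls are not covered by these counts. Its appendix lists *Cdkn1a* among the genes raised more than 1.5-fold in siDerl1 NSCs. Without overlap between the groups there was 1 of the 9, again *Cdk4*, which was lower, against 8.52% of all genes that were lower without overlap and 5.09% that were higher.

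The samples carry the numbers 1 to 3 in each group, and the samples numbered 1 deviated together from their group means (correlation of 0.70 across genes). Numbers 2 and 3 were hardly separated. siControl sample 2 correlated at 0.35 with siDerl1 sample 2 and at 0.34 with siDerl1 sample 3. No label states a pairing, which was taken from the shared numbers and these correlations. In the 3 pairs of equal number, *Cdkn1a* was higher in siDerl1 in all 3, against 15.8% of all genes tested, and *Cdkn1c*, *Ccnd1* and *Cdk4* were lower in all 3, against 22.1%. With the number as a replicate block the same 4 genes had an unadjusted p under 0.05, 4 of 9 against 15.7% of all genes. The block uses the same pair differences, so this is not a second result. The members were also chosen with earlier results of these data known. None of the 4 passed after adjustment over all genes (adjusted p of 0.0842 to 0.167 from limma with the block), a limit that 0.552% of all genes passed. Without an intensity trend, the block left *Cdk4* at an unadjusted p of 0.0917. By the fold limits of the study with the block, 1 of the 9 members was lower, *Cdkn1c*, against 2.41% of all genes, and none was higher, against 1.12%. *Cdkn1c* also met the lower limit without both samples numbered 1 (unadjusted p = 0.0366 from limma), where 277 genes were lower. With a single sample left out it did not (0.0611 to 0.608). *Cdkn1a* met the upper limit without siDerl1 sample 1 (0.0205, 100 genes higher) or without siControl sample 3 (0.0462, 64 genes higher). It did not without siControl sample 1 (0.164) or 2 (0.0573), or siDerl1 sample 2 (0.132) or 3 (0.178). Without both samples numbered 1, *Cdkn1a* was at 0.49 on the log2 scale, below the upper limit.

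**Figure D2:**
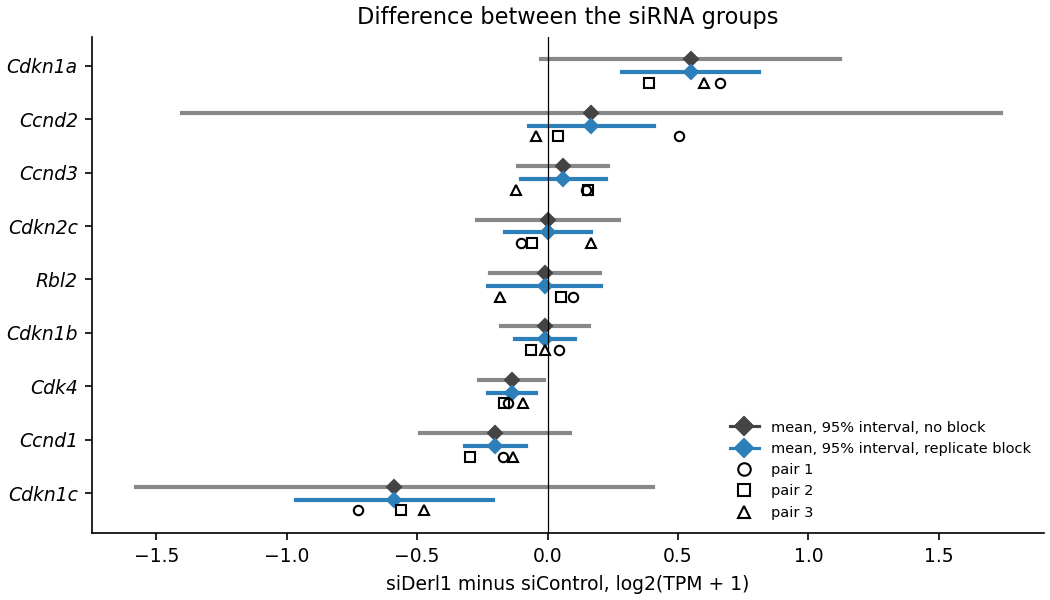
Difference between siDerl1 and siControl samples for the 9 tested genes, in log2(TPM + 1). Diamonds are mean differences with 95% intervals from limma without (grey) and with (blue) the sample number as a replicate block, and open symbols are the 3 pairs of equal number. *Cdkn1a* lies to the right in all 3 pairs and *Cdkn1c*, *Ccnd1* and *Cdk4* to the left.

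Among the inhibitors, *Cdkn1a* (NM_080782) encodes p21, the p53-induced inhibitor. It was at 8.35, 14.1 and 14.4 TPM in siControl samples 1, 2 and 3 and at 13.8, 18.7 and 22.3 TPM in siDerl1 samples 1, 2 and 3. The groups overlapped only because the lowest siDerl1 sample, number 1, lay just below siControl samples 2 and 3. The means were 12.3 ± 3.39 and 18.3 ± 4.26 TPM (SD, n = 3 each), a ratio of 1.49. In limma the difference was 0.55 on the log2 scale, with a standard error of 0.24 (adjusted p = 0.743, unadjusted p = 0.0580), and the pairs differed by 0.66, 0.39 and 0.60 on the log2 scale. The block lowered the standard error to 0.12, and limma then gave an adjusted p of 0.0842. The value moved from 0.32 without siControl sample 1 to 0.73 without siDerl1 sample 1, and was 0.49 without both samples numbered 1 (adjusted p = 0.278 from limma).

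*Cdkn1c* (NM_001033757, NM_001033758, NM_182735) encodes p57, an imprinted inhibitor that holds stem cells in quiescence. It was at 3.40, 8.90 and 6.79 TPM in siControl and at 1.66, 5.70 and 4.61 TPM in siDerl1 samples. Each siDerl1 sample was below the siControl sample of its number, but the groups overlapped because siControl sample 1 lay below siDerl1 samples 2 and 3. limma put the log2 difference at −0.59 with a standard error of 0.42 (adjusted p = 0.835), with pairs at −0.73, −0.56 and −0.47, and the block gave a standard error of 0.17 and an adjusted p of 0.157 from limma. The value was −0.92 without siControl sample 1 and −0.19 without siDerl1 sample 1. At these levels the added 1 TPM understates the change, and the ratio of mean TPM was 0.627.

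For p27 and p18 no difference was detected. *Cdkn1b* made up most of the Cip/Kip RNA. *Cdkn1b* (NM_031762) was at 185, 202 and 177 TPM in siControl and at 191, 193 and 176 TPM in siDerl1 samples, and the groups overlapped fully. The log2 fold change was −0.01, with a 95% interval from −0.18 to 0.16. *Cdkn2c* (NM_131902) was at 73.8, 69.2 and 78.2 TPM and at 68.6, 66.4 and 87.9 TPM in the same order, with a log2 fold change of 0.00 and an interval from −0.27 to 0.27. Differences as large as the ends of these intervals are compatible with the data.

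Among the D cyclins, *Ccnd1* (NM_171992), the mitogen-induced cyclin D1, was at 229, 263 and 290 TPM in siControl and at 203, 214 and 264 TPM in siDerl1 samples. Each siDerl1 sample was below the siControl sample of its number, while siDerl1 sample 3 exceeded siControl samples 1 and 2, so the groups overlapped. The difference in limma was −0.20 on the log2 scale with a standard error of 0.12 (adjusted p = 0.790), with pairs at −0.17, −0.30 and −0.13, and the block gave a standard error of 0.05 and an adjusted p of 0.130 from limma. It was −0.22 without both samples numbered 1, and with a single sample left out it lay between −0.31 (siDerl1 sample 3) and −0.12 (siControl sample 3).

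*Ccnd2* (NM_022267), the D cyclin of many neural progenitors, was at 17.4, 76.2 and 82.9 TPM in siControl and at 25.0, 78.4 and 80.4 TPM in siDerl1 samples. In both groups sample 1 was low, and the other 4 samples lay within 6.72 TPM of each other. limma gave 0.17 on the log2 scale with a standard error of 0.67 (adjusted p = 0.975). Without both samples numbered 1 it was −0.00064, with a 95% interval from −0.18 to 0.18. Without siControl sample 1 it was −0.54, and without siDerl1 sample 1 it was 0.71. It was also below 0 without siDerl1 sample 2 (−0.09) or siDerl1 sample 3 (−0.11).

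*Ccnd3* (NM_012766), which encodes cyclin D3, was at 85.6, 85.8 and 92.9 TPM in siControl and at 94.9, 95.6 and 85.4 TPM in siDerl1 samples. The groups overlapped and pair 3 went against the other 2. Their log2 difference was 0.06 (95% interval −0.11 to 0.23). The interval holds 0 and leaves out changes of the size seen for *Cdkn1a*.

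Of the kinases, *Cdk4* (NM_053593) was at 1292, 1235 and 1266 TPM in siControl and at 1162, 1099 and 1187 TPM in siDerl1 samples. All 3 siDerl1 values lay below all 3 siControl values. A two-sided exact permutation test gave p = 0.1, which is as low as 3 against 3 samples can go. The means were 1264 ± 28.6 and 1149 ± 45.5 TPM (SD, n = 3 each), a ratio of 0.909. limma gave −0.14 on the log2 scale with a standard error of 0.05 (adjusted p = 0.713, or 0.167 with the block), and a 95% interval from −0.26 to −0.01. With a single sample left out it stayed between −0.16 and −0.11, and its unadjusted p from limma lay between 0.0349 and 0.137. The unadjusted p was 0.0717 after median-of-ratios scaling, where the value was −0.12, and 0.0973 without an intensity trend, and the median of all genes tested was −0.02.

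*Cdk6* (NM_001191861), the second D cyclin kinase, was listed at 0, 0.26 and 0.31 TPM in siControl and at 0.34, 0.93 and 1.3 TPM in siDerl1 samples. The groups lay apart (two-sided exact permutation p = 0.1, the lowest attainable), the highest siControl and the lowest siDerl1 value being 0.03 TPM apart. Its mean was below the filter. Without a filter, limma put it at 0.62 on the log2 scale with a standard error of 0.22 (adjusted p = 0.706), and with the block as well, a fit chosen after seeing the data, the adjusted p from limma was 0.205. How many reads lie behind these values is unknown.

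*Rbl2* (NM_031094), the gene of p130, was at 25.9, 26.6 and 28.8 TPM in siControl and at 27.8, 27.6 and 25.3 TPM in siDerl1 samples. Pair 3 went against the other 2, and the groups overlapped. The log2 fold change was −0.01, with a 95% interval from −0.22 to 0.20.

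The D cyclins together summed to 332, 425 and 465 TPM in siControl samples 1, 2 and 3 and to 323, 388 and 430 TPM in siDerl1 samples. *Ccnd1* made up between 55.1% and 69.0% of that sum in every sample. The share of *Ccnd2* was 5.23% and 7.75% in the samples numbered 1 and between 17.8% and 20.2% in the others, without overlap between these samples. The Cip/Kip genes summed to 197, 225 and 198 TPM in siControl and to 206, 218 and 203 TPM in siDerl1 samples, and *Cdkn1b* held between 86.7% and 94.0% of each sum. The share of *Cdkn1a* was 4.25%, 6.25% and 7.25% in siControl and 6.69%, 8.60% and 11.0% in siDerl1 samples, higher with siDerl1 in each pair. The ratio of D cyclin to Cip/Kip TPM was 1.69, 1.89 and 2.35 in siControl and 1.57, 1.78 and 2.12 in siDerl1 samples, lower in each pair, with overlapping groups. For each TPM of D cyclin there were between 2.72 and 3.89 TPM of *Cdk4*. These sums describe RNA shares, and no test was made on them.

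**Figure D3:**
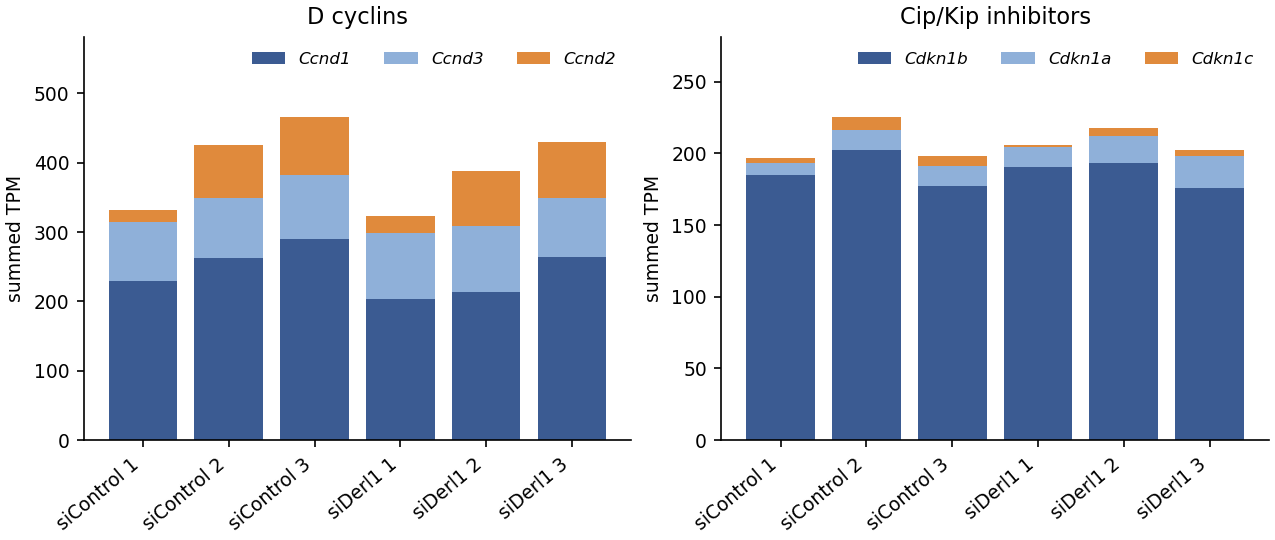
Summed TPM of the D cyclins (left) and of the Cip/Kip inhibitors (right) in each of the 6 samples, divided by gene. *Ccnd2* is a thin band in both samples numbered 1 and a thick one in the other 4, while *Cdkn1b* fills at least 86.7% of every bar on the right.

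Which of these genes differed by sample number was asked in a fit with the number at 3 levels beside the siRNA group. Of the 9 genes tested, 4 had an adjusted p under 0.05 (limma, F test), against 10.6% of all genes tested. They were *Ccnd2* (adjusted p = 3.62e-05 from limma), *Cdkn1c* (0.00982), *Ccnd1* (0.0174) and *Cdkn1a* (0.0292), which include 3 of the 4 genes that had moved the same way in every siRNA pair. All 4 were lower in sample 1 than in samples 2 and 3 of the same siRNA group. The labels do not say what the number stands for. The calls of *Cdkn1a* and *Ccnd1* were lost without the filter on low values (adjusted p = 0.0912 and 0.0524 from limma) and without an intensity trend (0.0710 and 0.182), whereas those of *Ccnd2* and *Cdkn1c* held in all 5 alternatives.

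These differences were of unequal size. The mean of samples 2 and 3 was 4.58 times sample 1 for *Ccnd2* in siControl and 3.17 times in siDerl1, and 2.31 and 3.11 times for *Cdkn1c*. For *Ccnd1* the same ratios were 1.21 and 1.18, and for *Cdkn1a* 1.70 and 1.49. *Cdkn1b*, *Cdkn2c*, *Ccnd3*, *Cdk4* and *Rbl2* did not pass (adjusted p from limma between 0.132 and 0.997). *Ccnd2* and the inhibitor *Cdkn1c*, which have opposite roles in the cycle, were both lowest in the samples numbered 1. Cell type markers differed between these samples too, and in both directions. The summed NSC markers were lower in the samples numbered 1, at 4196 and 4633 TPM against 5759 to 6100 TPM in the other 4, and most of that sum is *Vim*, at 3008 and 3386 TPM against 4644 to 5044 TPM. *Sox9* and *Slc1a3* were also lower there, whereas *Fabp7*, *Gfap* and *Sox2* were highest there within each siRNA group. The oligodendrocyte lineage sum was highest there as well, at 2127 and 2287 TPM against 1759 to 2031 TPM. The part of these markers in the result was not tested.

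**Figure D4:**
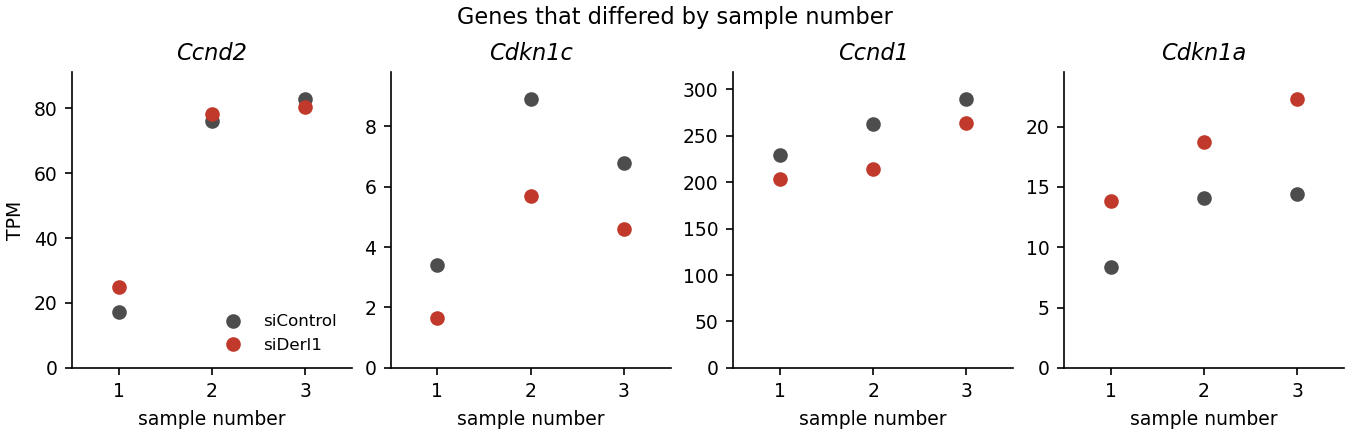
TPM of the 4 genes that differed by sample number, plotted against that number, with siControl in grey and siDerl1 in red (1 point per sample). In *Ccnd2* the samples numbered 1 are at 17.4 and 25.0 TPM and the others at 76.2 TPM or more, and in *Cdkn1a* every red point lies above the grey one of its number.

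The genes around these members were read from 6 lists. The other G1/S regulators hold cyclin E, CDK2, the remaining INK4 genes, RB and the E2F factors, and 18 of 23 were tested. None passed after adjustment, 1 was higher and 2 were lower at an unadjusted p under 0.05, and their median log2 fold change was −0.06 against −0.02 for all genes tested. Groups without overlap were seen for 2 genes that were higher and 6 that were lower among the 18, beside 5.09% and 8.52% of all genes tested, and 6.70% of all genes had an unadjusted p under 0.05. *Cdkn2b*, the p15 gene of the INK4 family, was at 42.1, 40.2 and 42.6 TPM in siControl and at 35.6, 34.99 and 30.6 TPM in siDerl1 samples, a log2 difference of −0.30 (limma, adjusted p = 0.704). *Ccne2*, a cyclin E gene that acts after the D cyclins, was at 35.3, 35.2 and 38.2 TPM and at 31.5, 28.1 and 32.7 TPM, a log2 difference of −0.23 (adjusted p = 0.713). *E2f6*, a repressive E2F factor, differed by 0.34 (adjusted p = 0.704) and *E2f7*, another, by −0.21 (adjusted p = 0.764).

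Of 13 DREAM and MuvB genes 10 were tested, none passed at an unadjusted p under 0.05, and their median was −0.0015. Of the 10, 2 were higher and 2 lower without overlap, beside 5.09% and 8.52% of all genes. *Tfdp1* and *Tfdp2*, the dimer partners of E2F, had log2 fold changes of 0.12 and −0.12, *Rbl1*, the gene of p107, had −0.11 and *Lin37*, a MuvB subunit, had 0.05, with adjusted p values from limma between 0.772 and 0.934. Of 35 E2F and proliferation genes 34 were tested, with means between 17.7 and 377 TPM. None of them passed at an unadjusted p under 0.05, their median was −0.02, and siDerl1 samples were higher in 14 of them, beside 45.2% of all genes tested. The median was above 0 without siDerl1 sample 2 (0.038) or siControl sample 3 (0.024). *Gins1*, a subunit of the replicative helicase, was the only one of the 34 whose groups did not overlap (5.09% of all genes were higher in this way), differing by 0.20 on the log2 scale (limma, adjusted p = 0.763).

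The p53 targets were read because *Cdkn1a* is one of the best known among them and because of the p53 match in its promoter window. Of 30 listed, 24 were tested, without *Cdkn1a* itself. Their median log2 fold change was −0.05, with 9 of the 24 higher in siDerl1 samples (45.2% of all genes tested), and at an unadjusted p under 0.05 1 was higher, *Ddb2*, and 1 lower, *Plk2*, beside 6.70% of all genes in either direction. Without overlap 1 was higher and 4 were lower, beside 5.09% and 8.52% of all genes. The median of the list was 0.0134 without siControl sample 1 and −0.0065 without both samples numbered 1. *Ddb2*, a DNA repair gene, was at 3.36, 2.44 and 3.36 TPM in siControl and at 4.75, 6.11 and 4.80 TPM in siDerl1 samples, a log2 difference of 0.62 (limma, adjusted p = 0.704). *Zmat3*, *Ei24* and *Rrm2b* lay the other way, at −0.19, −0.17 and −0.19 (adjusted p between 0.763 and 0.778). *Mdm2* and *Ccng1*, chosen after their values were seen as commonly used p53 readouts, were at −0.06 and −0.13 (adjusted p = 0.934 and 0.828). Of the 9 that were higher, *Polk* and *Sesn2*, also looked up after their values were seen, were at 0.16 and 0.12 (adjusted p = 0.881 and 0.880 from limma).

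Of 19 genes for the turnover of D cyclins and p27, 17 were tested, with a median of −0.05 and 4 of the 17 higher, beside the same 45.2%. *Gsk3b*, the kinase that marks D cyclins for export and decay, was at 113, 125 and 119 TPM in siControl and at 111, 98.8 and 87.6 TPM in siDerl1 samples, a log2 difference of −0.26 (limma, adjusted p = 0.704), and was the only one without overlap. Of 29 transcription factors known to act on the members, 27 were tested, with a median of −0.04. That median was −0.146 without siControl sample 1 and −0.0903 without siDerl1 sample 1. *Stat5b*, *Bmi1* and *Sp1* were lower in siDerl1 samples without overlap, 3 of 27 beside 8.52% of all genes tested, and no factor was higher without overlap, beside 5.09%. *Stat5b*, a signal transducer of cytokine receptors, differed by −0.42 on the log2 scale (limma, adjusted p = 0.692, or 0.0917 with the block). *Bmi1*, a Polycomb repressor of the INK4 locus, was at 80.4, 99.7 and 86.7 TPM in siControl and at 75.9, 76.3 and 75.8 TPM in siDerl1 samples, a log2 difference of −0.22 (adjusted p = 0.726). *Sp1*, which binds GC boxes, had −0.15 (adjusted p = 0.765).

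By sample number, 10 of these 27 factors passed (limma, F test, adjusted p under 0.05), against the 10.6% of all genes given above, whereas 0 of 18 G1/S regulators, 0 of 10 DREAM genes, 2 of 24 p53 targets (*Gadd45a* and *Phlda3*), 4 of 34 proliferation genes (among them *Mcm7*, *Cdk1* and *Gins2*) and 3 of 17 turnover genes (*Ddb1*, *Cryab* and *Usp22*) did. Among the 10 were *Myc*, *Mycn*, *Klf4*, *Id1*, *Id2*, *Id3*, *Hes1*, *Jun* and *Fos*, and the values of the following were looked up after this result was seen. *Id1*, a direct target of BMP signalling, was at 235, 418 and 690 TPM in siControl and at 259, 494 and 734 TPM in siDerl1 samples. *Myc*, which acts on *Cdk4* and *Ccnd2*, was at 264, 153 and 106 TPM and at 295, 158 and 99.9 TPM in the same order. The samples numbered 1 had the lowest *Id1* and *Ccnd2* and the highest *Myc*, in both siRNA groups. Whether these values are linked was not tested.

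**Figure D5:**
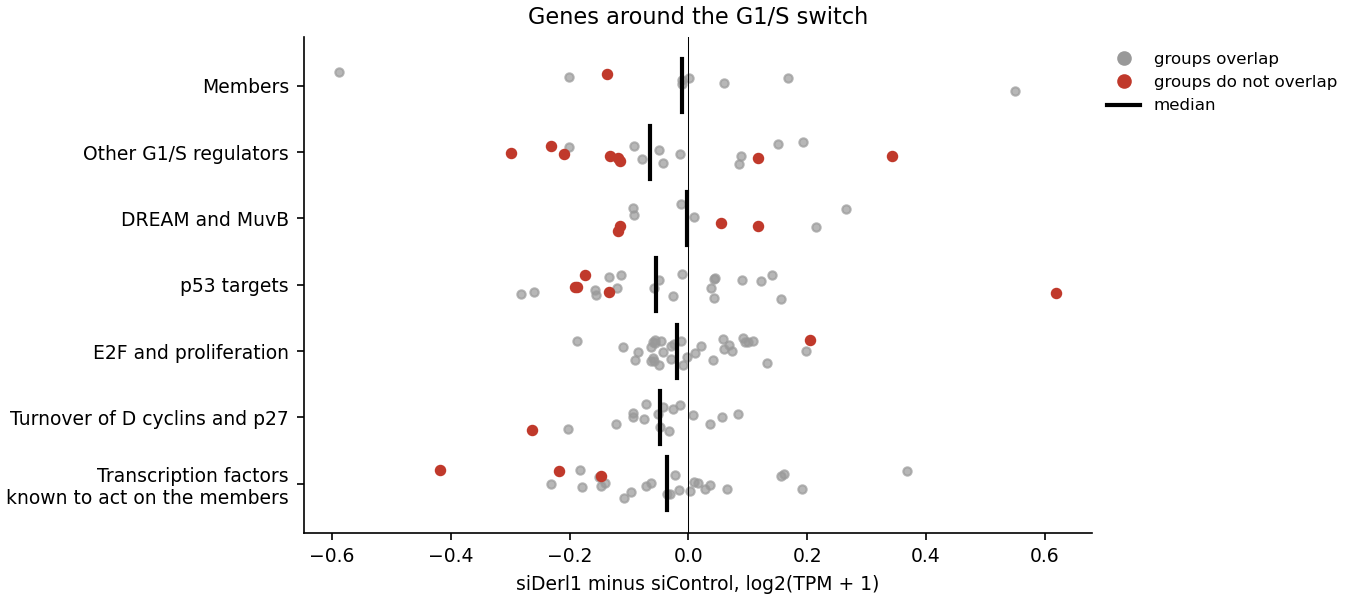
Log2 fold change (siDerl1 minus siControl, log2(TPM + 1)) of the 9 tested members and of the tested genes of the 6 lists, 1 point per gene, with black lines at the medians. Red points are genes whose groups did not overlap. Every list median lies between −0.06 and −0.0015, near that of all genes tested (−0.02).

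Finally, the genes most like a member across the 6 samples were found by the root mean square difference of centred log2(TPM + 1) values. For *Cdk4*, whose own spread by this measure was 0.0787, the nearest were *Bcor* (0.0130), *Ppp1cb* (0.0143) and *Xrcc2* (0.0175). For *Cdk6*, with a spread of 0.403, they were *Rfx2* (0.107), *Tmco6* (0.122) and *Ttc38* (0.129). The others were looked up after their values were seen. *Rfx2*, at 2.52, 4.25 and 4.85 TPM in siControl and at 4.53, 6.45 and 8.02 TPM in siDerl1 samples, was also nearest to *Cdkn1a* (0.0485, with a spread of 0.409). *Sox9*, a factor of neural stem cells and astrocytes, was nearest to *Ccnd2* (0.105, with a spread of 0.899), at 7.50, 38.3 and 36.5 TPM in siControl and at 9.42, 34.7 and 37.5 TPM in siDerl1 samples. *Dnajc22*, the gene of a J-domain protein, was nearest to *Cdkn1c* (0.101, with a spread of 0.611).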

How the data were processed

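RNA-seq of 6 samples was used, 3 siControl and 3 siDerl1, grouped by their titles. Per the submitters' processing notes and the methods, reads of poly(A) libraries were trimmed with Trimmomatic (version 0.39), mapped to the rat genome rn6 with STAR (2.7.3a) and quantified with RSEM (1.3.2). The values the authors deposited are TPM, which sum to 1000000 per sample. Their own test used edgeR on values not used here. No depth can be read from TPM, so precision is that of the samples alone.

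The values were transformed to log2(TPM + 1), genes with a mean of at least 1 TPM were kept, and limma (version 3.58.1, R 4.3.3; lmFit, eBayes with an intensity trend) was fitted to all of them, with Benjamini-Hochberg adjustment. The fit was tested on simulated data. Fold limits were applied on the same scale. Number effects used an F test with the siRNA group in the fit. Alternatives were another pseudocount, 2 other filters, median-of-ratios scaling, no trend, the replicate block, and left-out samples.

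Whether the replicate numbers pair samples was checked: deviations from group means correlated at 0.70, 0.35 and 0.51 between siControl and siDerl1 samples numbered 1, 2 and 3, across genes, so the numbers were taken to pair the samples. The labels name no shared day or batch. Numbers 2 and 3 are hardly separated, with 0.34 and 0.25 between them.

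The members and lists were chosen with earlier results of these data known. From each list at most 4 genes without overlap between groups are named, by smallest p, or otherwise the 1 with the smallest p. Likeness was named for members whose groups did not overlap, with 3 genes each. Promoters come from RefSeq (GRCr8) and were not matched to rn6 coordinates. Some genes counted in the lists are not reported here by name.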

Additional observations from a re-analysis of the deposited data

How the results depend on the processing

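Over the alternatives, *Cdkn1a*, *Cdkn1c*, *Ccnd1*, *Ccnd3* and *Cdk4* kept their direction and no member passed an adjusted p under 0.05. Of 135 values of member fold changes, 12 changed sign, in *Cdkn1b*, *Cdkn2c*, *Ccnd2* and *Rbl2*. Of these, 3 came with *Cdkn1b* and *Rbl2* under median-of-ratios scaling (0.0049 and 0.0047 on the log2 scale) and *Ccnd2* without both samples numbered 1 (−0.00064), and the other 9 with a single sample left out. The ranges with 1 sample left out were −0.0526 to 0.0425 for *Cdkn1b*, −0.124 to 0.0756 for *Cdkn2c*, −0.54 to 0.71 for *Ccnd2* and −0.0409 to 0.0330 for *Rbl2*. With 1 sample left out, the list medians ranged from −0.0947 to −0.0253 (other G1/S regulators), −0.0385 to 0.0302 (DREAM and MuvB), −0.0426 to 0.0384 (E2F and proliferation), −0.0834 to 0.0134 (p53 targets), −0.0817 to −0.0309 (turnover) and −0.146 to −0.0379 (transcription factors).

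With the replicate block, genes within the study's limits went from 55 higher and 142 lower to 116 and 249 (104 and 272 without a trend, 138 and 314 without a filter, the latter chosen after seeing the data). Without both samples numbered 1 there were 135 and 277, with a mean of at least 5 TPM 24 higher, and with 1 sample left out 52 (without siDerl1 sample 2) to 100 (without siDerl1 sample 1) higher and 115 (without siControl sample 2) to 252 (without siControl sample 1) lower. Genes with an adjusted p under 0.05 from limma, 0 without the block, were 57 with it, 2 with it and no filter, 0 with it and no trend, and 35 without both samples numbered 1. *Derl1* passed at −1.03 with the block and at −0.83 without number 1, but not with the block and no trend (adjusted p = 0.229) or the block and no filter (0.104). By sample number 1092 genes passed, 591 without a filter and 252 without a trend, and the adjusted p of *Cdkn1a* was 0.0912 and 0.0710 and that of *Ccnd1* 0.0524 and 0.182 in these 2 fits. The causes were not tested. The depth behind the values is unknown, which limits what can be said of genes with low TPM such as *Cdk6*.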
